A study of Homo sapiens with 6 samples.

Results

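Nuclear hormone receptors are the transcription factors that steroid hormones, thyroid hormone, retinoids, vitamin D and lipids act through. The set examined here held 46 receptor genes chosen by name, with earlier results of these data known. Of these, 39 were among the 18417 genes tested in all. Each had a probe set (the group of probes on the array that reports a transcript) whose annotation names that gene alone. A gene with several such probe sets was represented by its brightest, judged by the mean of all 6 arrays. Of the 7 receptors not analysed here, RARA had only a probe set that also carries another gene's name, and no probe set of NR1H2, NR1H4, NR1I2, HNF4A, NR2F2 or NR0B1 was used.

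Total RNA was measured on 1-colour whole-transcript arrays in MDA-MB231 cells, a human metastatic breast cancer line with mesenchymal features that is known to lack the estrogen and progesterone receptors. The knockdown group was 1 clone of this line with a stable knockdown of G9a (gene EHMT2), a histone H3 methyltransferase, measured on 3 arrays, and the control group was the untreated parental line, also measured on 3 arrays. Both were grown in serum-containing medium and harvested during log growth. The serum contributes hormones of its own, and no receptor ligand was named as added. The knockdown construct is not given in the sources used here, and with a single clone set against an uncloned parent, knockdown and clone cannot be told apart. No label says that arrays of a group came from separate cultures, so the p-values measure the spread between these arrays, which may be technical.

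A nuclear receptor binds DNA through zinc fingers and its ligand through a separate pocket. Steroid receptors are held by heat shock chaperones until ligand binds, and they bind DNA as pairs of themselves. The thyroid, retinoic acid, vitamin D and lipid-sensing receptors instead pair with a retinoid X receptor (RXR). Without ligand many of them recruit corepressor complexes that carry histone deacetylases, and ligand exchanges these for coactivators. G9a itself is known as a histone-modifying cofactor that receptors can recruit, with repression or activation reported depending on the gene.

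The targeted gene was checked first. EHMT2 had log2 values of 9.66, 9.59 and 9.51 on the knockdown arrays and 10.21, 10.27 and 9.93 on the control arrays. No knockdown array reached the lowest control array, and EHMT2 was 1.47-fold lower (-0.55 ± 0.10 on the log2 scale, SE, n = 3 each, limma adjusted p = 0.0259). It passed in only 1 of the 6 fits that left out an array, the one without control replicate 3 (adjusted p = 0.0101). Array medians lay between 7.79 and 7.86. When arrays were weighted by their fit to the model, control replicate 3 (weight 0.273) and knockdown replicate 1 (weight 0.413) received the lowest weights. Control replicate 2 (4.825) and knockdown replicate 3 (2.051) received the highest, so the weighted setting rests most on these arrays. For some results, but not all, values without control replicate 3 or knockdown replicate 1 are given below. All 5 markers of the mesenchymal line (VIM, CD44, AXL, ANXA1, CAV1) lay between 13.5 and 13.7 in knockdown cells and between 13.4 and 13.7 in control cells, and none passed the test (0 of 5 also at an unadjusted p of 0.05), with CAV1 at 0.11 ± 0.06 and AXL at 0.06 ± 0.06 differing most.

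Markers of other cells gave 1 call. The 4 measured leukocyte markers of 5 gave no call (2 at an unadjusted p of 0.05; PTPRC 0.21 ± 0.06, limma adjusted p = 0.0962, and CD68 -0.19 ± 0.07, adjusted p = 0.179). Of the 5 fibroblast and endothelial markers CDH5, the endothelial cadherin, was 0.71 ± 0.12 log2 higher in knockdown cells (limma adjusted p = 0.0210), and PECAM1, named after its value was seen, differed by 0.42 ± 0.10 (adjusted p = 0.0591). The mean log2 level of those 5 ranged from 7.11 to 7.14 over the knockdown arrays and from 6.72 to 7.01 over the control arrays, and PDGFRB, VWF and DCN did not pass the test. CDH5 missed the threshold in 4 of the 6 fits with an array left out (highest adjusted p = 0.0869). Without control replicate 3 both CDH5 and PECAM1 passed, as they did with knockdown replicate 1 also left out. The part of these markers in the receptor results was not tested.

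The receptor genes that changed in the knockdown cells were few. NR3C2, the mineralocorticoid receptor, and NR1D1, the clock repressor REV-ERB alpha, fell, and RXRA, the shared partner of the nuclear receptors that act in pairs with RXR, rose. A change means a Benjamini-Hochberg adjusted p of at most 0.05 in a limma fit to all 18417 genes. By that rule 3 of 39 receptors (7.69%) changed, against 3.05% of all genes. Of the receptors 1 (2.56%) was higher, against 1.28% of all genes, and 2 (5.13%) were lower, against 1.78% of all genes. These shares rest on 3 genes, and the receptor median difference of 0.05 log2 lay beside 0.03 for all genes. The difference was positive for 23 receptors and negative for 16, and over all genes it was positive for 59.6% and negative for 40.4%.

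Small shifts in both directions were common among the receptors. The knockdown and control arrays did not overlap for 21 of the 39 receptors (53.8%), against 27.0% of all genes. Knockdown arrays were all higher for 12 receptors (30.8%, against 14.3% of all genes) and all lower for 9 (23.1%, against 12.7% of all genes). At an unadjusted p of 0.05, 18 receptors (46.2%) passed, against 19.4% of all genes. The genes were not independent of each other, and 14 of the 39 receptors had mean values in the bottom tercile of all genes, where 3 of them did not overlap and 0 changed (limma; 2 at an unadjusted p of 0.05). These counts describe the set, with no test of the set itself.

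**Figure D1:**
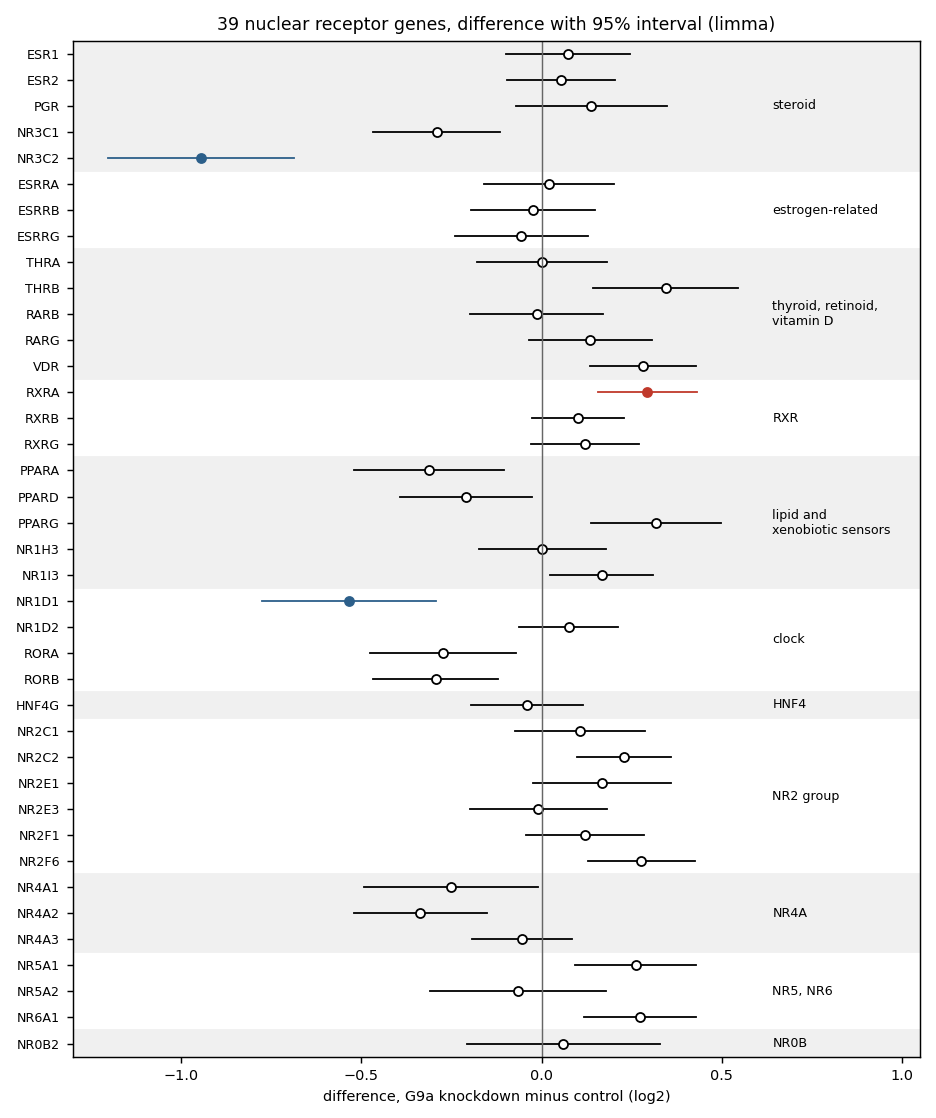
Log2 difference (G9a knockdown minus control) of each of the 39 receptors, with its 95% interval from limma, n = 3 arrays each. NR3C2 at -0.94 and NR1D1 at -0.53 lie lowest and passed the test, as did RXRA at 0.29, and THRB at 0.34 is the highest of the receptors that did not pass.

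The promoters of the receptors that changed are shown because a chromatin modifier was lowered, and they differ in CpG content. Sequences are from RefSeq (GRCh38.p14), run from 250 bases before to 50 bases after the first-listed start of each gene, and are written 5′ to 3′ along the gene's strand. Capitals mark the GC box hexamer GGGCGG on either strand, with overlapping copies joined.
NR3C2, chr4:148442365-148442664, minus strand: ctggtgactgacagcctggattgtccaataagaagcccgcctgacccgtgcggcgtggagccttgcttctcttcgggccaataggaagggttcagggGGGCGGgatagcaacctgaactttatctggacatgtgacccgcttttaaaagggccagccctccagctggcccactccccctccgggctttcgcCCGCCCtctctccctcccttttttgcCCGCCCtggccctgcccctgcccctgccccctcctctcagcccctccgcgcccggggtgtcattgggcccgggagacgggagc
RXRA, chr9:134326205-134326504, plus strand: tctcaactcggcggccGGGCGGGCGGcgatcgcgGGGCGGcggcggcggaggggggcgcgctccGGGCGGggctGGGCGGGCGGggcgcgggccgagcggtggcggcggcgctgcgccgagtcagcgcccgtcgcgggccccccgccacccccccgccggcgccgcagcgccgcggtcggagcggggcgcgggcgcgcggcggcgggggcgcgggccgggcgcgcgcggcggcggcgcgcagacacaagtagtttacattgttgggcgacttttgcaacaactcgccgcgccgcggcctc
NR1D1, chr17:40100540-40100839, minus strand: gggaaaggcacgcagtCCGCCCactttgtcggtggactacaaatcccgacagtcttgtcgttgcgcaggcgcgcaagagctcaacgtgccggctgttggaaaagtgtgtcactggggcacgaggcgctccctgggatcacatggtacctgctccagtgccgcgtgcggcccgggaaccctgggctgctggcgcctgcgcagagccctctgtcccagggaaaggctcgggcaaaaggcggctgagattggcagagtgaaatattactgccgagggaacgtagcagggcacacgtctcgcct
The RXRA window held 65 CpG dinucleotides, the NR1D1 window 24 and this NR3C2 window 16, against a median of 17 over the 41 receptors with a listed promoter and 14 over 27305 promoters of all genes. RefSeq lists 4 starts for NR3C2, and the windows of the others held 38, 40 and 42 CpG, so the count depends on the start. RXRA has 2 listed starts, and the second window held 8 CpG. The GC box was present in 23 of the 41 receptor promoters (56.1%) and in 44.6% of all promoters.

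Hexamers that receptors and clock factors are known to bind were counted in the same windows on both strands. AGGTCA, the core element of RXR partners, occurred in 7 of 41 receptor promoters (17.1%) and in 13.9% of all promoters. AGAACA, the core steroid receptor element, occurred in 6 (14.6%) and in 14.9% of all, and the E-box CACGTG in 4 (9.76%) and in 7.43% of all. None of these hexamers was in the 3 windows printed. The letters describe the windows only, and no binding was measured.

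Among the steroid receptors, NR3C2 had the largest difference of all 39. The mineralocorticoid receptor binds aldosterone and also cortisol, and is best known for salt balance in the kidney. Its log2 values were 7.10, 7.55 and 7.44 on the knockdown arrays and 8.25, 8.29 and 8.38 on the control arrays. The highest knockdown array lay well below the lowest control array, and knockdown replicate 1 lay below the other two. The means were 7.36 ± 0.23 in knockdown cells and 8.31 ± 0.07 in control cells (SD, n = 3 each), a 1.92-fold lower level (-0.94 ± 0.11 log2, SE, 95% interval -1.20 to -0.69, limma adjusted p = 0.00896). Without knockdown replicate 1 the difference was -0.81, and without that array and control replicate 3 it was -0.78 (adjusted p = 0.0247). The call was lost without knockdown replicate 3 (adjusted p = 0.0545).

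NR3C1, the glucocorticoid receptor, which binds cortisol and is closely related to NR3C2, had values of 10.66, 10.83 and 10.83 in knockdown cells and 11.11, 11.12 and 10.96 in control cells. Its groups did not overlap, and the difference was -0.29 ± 0.08 log2 (95% interval -0.47 to -0.11, limma adjusted p = 0.0843), which missed the threshold. It passed in 3 of the 15 alternative settings.

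The sex steroid receptors did not differ detectably. ESR1, estrogen receptor alpha, had values of 6.85, 6.88 and 6.69 in knockdown cells and 6.64, 6.79 and 6.76 in control cells. ESR2, estrogen receptor beta, had 6.78, 6.80 and 6.80 in knockdown cells and 6.74, 6.82 and 6.65 in control cells. PGR, the progesterone receptor and itself a target of ESR1, had 5.74, 5.38 and 5.55 in knockdown cells and 5.40, 5.41 and 5.45 in control cells. The groups overlapped for all 3 genes. Differences were 0.07 ± 0.07 for ESR1 (95% interval -0.10 to 0.24, limma adjusted p = 0.641), 0.05 ± 0.06 for ESR2 (-0.10 to 0.20, adjusted p = 0.697) and 0.14 ± 0.09 for PGR (-0.07 to 0.35, adjusted p = 0.453). A second ESR1 probe set, not used for the fit over genes, differed by 0.14. All 3 genes had mean values in the bottom tercile of all genes, and the deposited values carry no detection call, so a probe set near background cannot be told from a low transcript level. Of the 8 luminal breast markers, which include ESR1 and PGR, none passed (1 at an unadjusted p of 0.05; limma), with FOXA1 at -0.18 ± 0.06 and TFF1 at 0.14 ± 0.08 differing most.

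The estrogen-related receptors, orphan receptors known for control of mitochondrial genes, overlapped between groups. Their differences were 0.02 for ESRRA, -0.02 for ESRRB and -0.06 for ESRRG (limma adjusted p between 0.748 and 0.914).

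**Figure D2:**
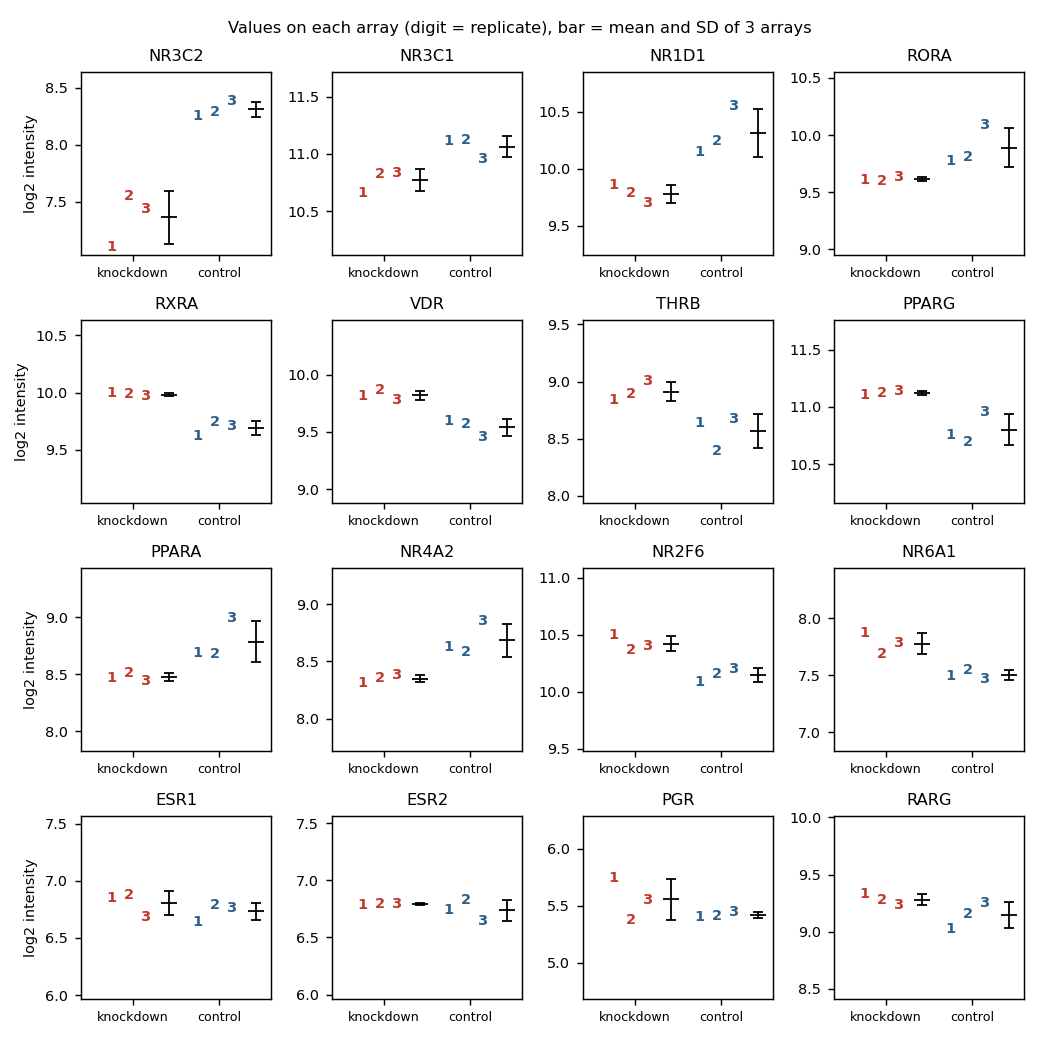
Log2 value on each array for 16 receptors, G9a knockdown left of control in each panel, with the replicate number as the point and a bar for the mean and SD (n = 3). NR3C2 and NR1D1 are lower and RXRA is higher on every knockdown array. Control replicate 3 is the highest control for NR3C2, NR1D1, RORA, THRB, PPARA, PPARG, NR4A2, NR2F6, PGR and RARG.

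Within the clock receptors NR1D1 fell, and 3 of 4 were lower on every knockdown array, as were 12.7% of all genes. NR1D1 and its relative NR1D2 repress transcription of the clock gene BMAL1 and bind heme, while RORA and RORB activate through the same DNA elements. NR1D1 had values of 9.86, 9.79 and 9.70 in knockdown cells and 10.15, 10.24 and 10.55 in control cells. The groups did not overlap, and control replicate 3 was the highest array. The means were 9.78 ± 0.08 in knockdown cells and 10.31 ± 0.21 in control cells (SD, n = 3 each), a 1.45-fold lower level (-0.53 ± 0.10 log2, SE, 95% interval -0.77 to -0.29, limma adjusted p = 0.0374). Without control replicate 3 the difference was -0.42 (adjusted p = 0.0336), and without control replicate 3 and knockdown replicate 1 it was -0.46 (adjusted p = 0.0459). Adjusted p-values above the threshold came from the fits that lacked control replicate 2 (0.0818) or knockdown replicate 1 (0.103), 2 (0.0931) or 3 (0.152).

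NR1D1 overlaps the end of THRA on the opposite strand, as is known from the genome, and the strand the probes read is not given in the sources used here. THRA, thyroid hormone receptor alpha, overlapped between groups and differed by 0.00 log2 (95% interval -0.18 to 0.18, limma adjusted p = 0.997).

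RORA, which activates BMAL1, had values of 9.61, 9.60 and 9.64 in knockdown cells and 9.78, 9.81 and 10.09 in control cells. The groups did not overlap, and the difference of -0.27 ± 0.09 missed the threshold (limma adjusted p = 0.137); without control replicate 3 it was -0.18. RORB, known mainly from retina and brain, had 7.54, 7.74 and 7.77 in knockdown cells and 7.99, 7.92 and 8.02 in control cells. Its groups did not overlap either (-0.29 ± 0.08, limma adjusted p = 0.0804). NR1D2, REV-ERB beta, overlapped and differed by 0.07 ± 0.06 (adjusted p = 0.541).

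Of the RXR genes RXRA rose, and all 3 were higher on every knockdown array, as were 14.3% of all genes. RXR binds a vitamin A derivative and is the obligate partner of the retinoic acid, thyroid hormone, vitamin D, PPAR and LXR receptors. RXRA had values of 9.99, 9.98 and 9.97 in knockdown cells and 9.62, 9.74 and 9.71 in control cells. The knockdown arrays lay within a few hundredths of each other, all above the highest control array. The means were 9.98 ± 0.01 in knockdown cells and 9.69 ± 0.06 in control cells (SD, n = 3 each), a 1.23-fold higher level (0.29 ± 0.06 log2, SE, 95% interval 0.16 to 0.43, limma adjusted p = 0.0406). The size changed little, between 0.26 and 0.32 over the 15 alternative settings, but the call was lost in each of the 6 fits that left out 1 array, with adjusted p between 0.0556 (without control replicate 3) and 0.149 (without knockdown replicate 3). RXRB differed by 0.10 ± 0.06 (limma adjusted p = 0.363) and RXRG by 0.12 ± 0.07 (adjusted p = 0.360). The other RXRB probe sets gave 0.10 and 0.09, but their values were nearly the same on every array, so they are not separate measurements.

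None of the 5 measured thyroid hormone, retinoic acid and vitamin D receptors passed the test (2 at an unadjusted p of 0.05; limma), although VDR and THRB did not overlap between groups. VDR, the vitamin D receptor, had values of 9.82, 9.86 and 9.78 in knockdown cells and 9.60, 9.57 and 9.45 in control cells. It was 1.22-fold higher (0.28 ± 0.06 log2, 95% interval 0.13 to 0.43) with a limma adjusted p of 0.0587. It passed in 4 of the 15 alternative settings, quantile normalization among them (adjusted p = 0.0354).

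THRB, thyroid hormone receptor beta, had 8.84, 8.89 and 9.003 in knockdown cells and 8.64, 8.40 and 8.67 in control cells. Every knockdown array was higher, and its 0.34 ± 0.09 was the largest positive difference of the receptors (95% interval 0.14 to 0.55, limma adjusted p = 0.0787). RARB, a retinoic acid receptor that is itself induced by retinoic acid, had 8.15, 8.26 and 8.07 in knockdown cells and 8.28, 8.20 and 8.05 in control cells. RARG, the retinoic acid receptor best known from skin, had 9.33, 9.28 and 9.24 in knockdown cells and 9.02, 9.16 and 9.26 in control cells. Both overlapped between groups, with differences of -0.01 ± 0.08 for RARB (limma adjusted p = 0.944) and 0.14 ± 0.07 for RARG (adjusted p = 0.362).

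The lipid sensors split in direction. PPARG, the fatty acid receptor that drives fat cell formation, had values of 11.10, 11.12 and 11.14 in knockdown cells and 10.76, 10.69 and 10.96 in control cells. It was higher on every knockdown array, 1.25-fold (0.32 ± 0.08 log2, 95% interval 0.14 to 0.50, limma adjusted p = 0.0715). Control replicate 3 lay nearest to the knockdown arrays, and without it PPARG differed by 0.40 and passed (adjusted p = 0.0233), as it did without that array and knockdown replicate 1 (0.40, adjusted p = 0.0440). PPARA, the receptor of fatty acid oxidation in liver, had 8.47, 8.51 and 8.44 in knockdown cells and 8.69, 8.68 and 8.99 in control cells. It was lower on every knockdown array (-0.31 ± 0.09, limma adjusted p = 0.111), with -0.21 without control replicate 3. PPARD, the broadly expressed family member, was also lower on every knockdown array at -0.21 ± 0.08 (adjusted p = 0.204). NR1H3, the oxysterol receptor LXR alpha, differed by 0.00 ± 0.08 (adjusted p = 0.994), and NR1I3, the xenobiotic receptor CAR, by 0.17 ± 0.06 with no overlap (adjusted p = 0.195).

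The NR4A receptors, immediate early genes that act without a known hormone, were lower on every knockdown array for 2 of 3 members, as were 12.7% of all genes, and none passed the test (2 at an unadjusted p of 0.05; limma). NR4A2, also called NURR1, had values of 8.31, 8.36 and 8.38 in knockdown cells and 8.63, 8.58 and 8.85 in control cells. NR4A1, also called NUR77, had 8.41, 8.26 and 8.32 in knockdown cells and 8.44, 8.47 and 8.82 in control cells. Neither gene overlapped between groups, and control replicate 3 was the highest array for both. The differences were -0.34 ± 0.08 for NR4A2 (limma adjusted p = 0.0659) and -0.25 ± 0.11 for NR4A1 (adjusted p = 0.238). Without control replicate 3 they were -0.25 for NR4A2 and -0.13 for NR4A1. NR4A3 overlapped (-0.05 ± 0.06, limma adjusted p = 0.662).

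Among the orphan receptors of the NR2, NR5 and NR6 families, none passed the test. NR2F6, a COUP-type repressor, had values of 10.50, 10.37 and 10.40 in knockdown cells and 10.08, 10.15 and 10.20 in control cells. Its groups did not overlap (0.28 ± 0.06, limma adjusted p = 0.0634). NR2C2, the testicular receptor TR4, was higher on every knockdown array at 0.23 ± 0.06 (adjusted p = 0.0731), and NR2F1, another COUP factor, at 0.12 ± 0.07 (adjusted p = 0.395). NR2C1 (0.11), NR2E1 (0.17) and NR2E3 (-0.01) overlapped, with NR2E1 and NR2E3 known mainly from brain and retina. In this group of 6 measured genes, 2 passed at an unadjusted p of 0.05.

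NR6A1, germ cell nuclear factor, had values of 7.87, 7.68 and 7.78 in knockdown cells and 7.49, 7.55 and 7.47 in control cells. NR5A1, steroidogenic factor of the adrenal and gonad, had 7.31, 7.12 and 7.26 in knockdown cells and 7.03, 6.90 and 6.97 in control cells. Both were higher on every knockdown array, by 0.27 ± 0.07 for NR6A1 (limma adjusted p = 0.0721) and 0.26 ± 0.07 for NR5A1 (adjusted p = 0.0990), and neither passed. NR5A1 lay in the bottom tercile of all genes. NR5A2 (-0.06), the hepatocyte factor HNF4G (-0.04) and NR0B2 (0.06), a repressor of other receptors that has no DNA-binding domain, overlapped between groups. Markers of the tissues where such receptors are known, 5 measured for steroid-producing, liver and retina cells, gave no call (0 at an unadjusted p of 0.05; limma), with CRX at 0.14 ± 0.17 and CYP17A1 at 0.10 ± 0.08 differing most.

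The receptors that changed were set beside the genes around them. So were NR3C1, PPARG, NR2C2, VDR and PPARA, which did not pass the test and were picked by no fixed rule. For each receptor the 38 nearest tested genes, 19 on each side in RefSeq order, gave a neighbourhood median. Over 17494 genes with a full neighbourhood these medians had a 5th percentile of -0.09, a median of 0.03 and a 95th percentile of 0.10. The neighbourhood of NR3C2 on chromosome 4 had a median of -0.17, and 29 of its 38 genes were negative, against 40.4% of all genes. Only 0.503% of all genes had a neighbourhood median as low. Of these neighbours 5 fell and 1 rose, named here after their values were seen, as are the neighbours below. The 5 included TMEM154 (-1.70) and HHIP (-1.24), which binds and holds back hedgehog ligands, and the 1 that rose was FHDC1 (0.52).

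Neighbours of NR3C1 on chromosome 5 were low to the same extent. Their median was -0.17, 27 of 38 were negative and 9 fell, including the growth factor FGF1 (-0.46), its feedback inhibitor SPRY4 (-0.47) and the leucine tRNA ligase LARS1 (-0.57), and 0.703% of genes had a median as low. PPARG on chromosome 3 lay among genes that were high. Their median was 0.18, 32 of 38 were positive and 5 rose, including the tumour suppressor VHL (0.39), the metalloproteinase inhibitor TIMP4 (0.44) and the nuclear pore gene NUP210 (0.46), with 0.292% of genes as high. NR2C2 is the last neighbour of PPARG on that side, so its own neighbourhood (median 0.16, 31 of 38 positive) shares genes with it.

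RXRA on chromosome 9 had a neighbourhood median of 0.11 with 33 of 38 genes positive, against 59.6% of all genes, of which the chromatin reader BRD3 rose (0.35), and 3.14% of genes had a median as high. ESRRA, which differed by 0.02, also had 33 of 38 neighbours positive (median 0.09). NR4A3 (-0.05) had a neighbourhood median of 0.10, and both were picked after their values were seen. For NR1D1 on chromosome 17 the neighbourhood median was -0.02, with 21 genes negative and 17 positive, beside -0.53 for NR1D1 itself. Of these neighbours IKZF3 fell (-0.54) and TNS4 rose (0.61). The neighbourhood median was 0.04 for VDR on chromosome 12 and 0.09 for PPARA on chromosome 22, beside -0.31 for PPARA itself. RORA (-0.27), RORB (-0.29), NR4A1 (-0.25) and NR4A2 (-0.34) were lower without passing, beside neighbourhood medians of 0.02, 0.06, 0.06 and -0.01. THRB (0.34), NR2F6 (0.28), NR5A1 (0.26) and NR6A1 (0.27) were higher without passing, beside medians of 0.02, 0.06, 0.04 and 0.04. The cause of the shared direction of neighbours around NR3C2, NR3C1, PPARG, NR2C2 and RXRA was not tested.

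**Figure D3:**
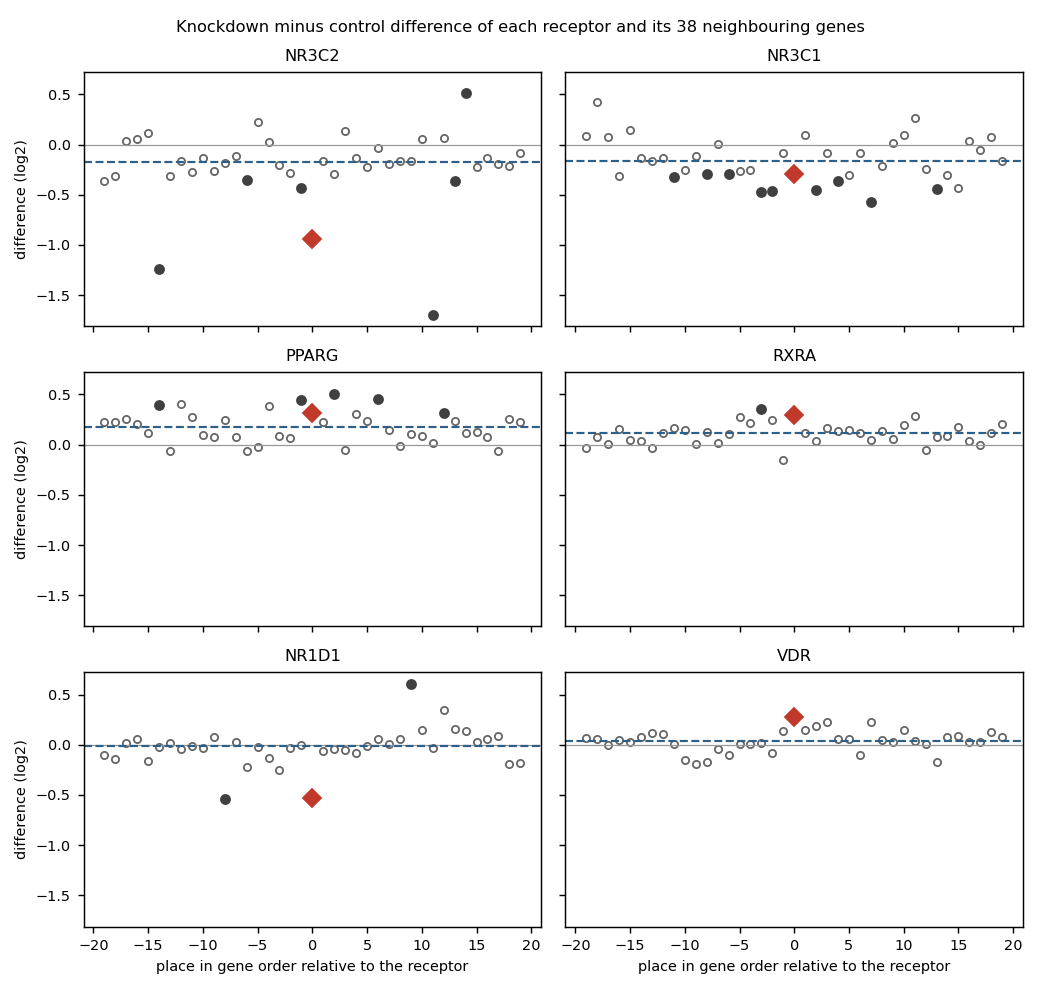
Log2 difference (G9a knockdown minus control) of 6 receptors, drawn as diamonds, and of their 38 nearest tested genes in order along the chromosome, with filled points for genes that passed the test and a dashed line at the neighbours' median. Neighbours lie mostly below 0 around NR3C2 and NR3C1 and mostly above 0 around PPARG and RXRA, and are spread on both sides of 0 around NR1D1.

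Genes that work with the receptors changed in small numbers, against the same backgrounds of 1.28% higher and 1.78% lower. Of 27 measured coactivators of 28, 0 passed the test (5 at an unadjusted p of 0.05; limma; median difference 0.03). The closest were SRA1, an RNA and protein coactivator of steroid receptors (-0.27 ± 0.06, adjusted p = 0.0528), which passed without control replicate 3, and the histone methyltransferase NSD1 (-0.26 ± 0.07, adjusted p = 0.0831). Of 19 measured corepressor genes of 21, TBL1X, a subunit of the NCoR and SMRT complexes, rose (0.55, limma adjusted p = 0.0172), and the one that fell was EHMT2 itself, the target. Of 12 measured receptor chaperones of 13, the heat shock protein HSPA4 fell (-0.35 ± 0.06, limma adjusted p = 0.0219), and 10 of the 12 differences were negative, against 40.4% over all genes. The mean log2 level of the chaperones was lowest on knockdown replicate 1 (11.48), and the count of negative differences rests in part on that array. Without it their median difference went from -0.04 to -0.02, and HSPA4 did not pass (limma adjusted p = 0.0726).

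Ligand supply held 5 calls. Of 31 measured genes of 34 that make, move or break down receptor ligands, 4 rose and 1 fell, with a median difference of 0.06. DIO2, the deiodinase that makes active thyroid hormone, had values of 9.89, 9.86 and 9.86 in knockdown cells and 9.17, 9.19 and 9.25 in control cells. The groups lay far apart, and DIO2 was 1.59-fold higher (0.67 ± 0.06 log2, SE, n = 3 each, limma adjusted p = 0.00329). STRA6, the cell surface receptor for retinol uptake, rose by 0.67 ± 0.10 (limma adjusted p = 0.0188). The steroid sulfatase STS rose by 0.46 (adjusted p = 0.0213) and HSD17B2, which inactivates estradiol, by 0.44 ± 0.09 (adjusted p = 0.0397). Without control replicate 3 HSD17B2 differed by 0.36 and did not pass (limma adjusted p = 0.0540).

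CYP24A1, which degrades active vitamin D and is known as a strongly induced VDR target, had 7.95, 8.28 and 8.03 in knockdown cells and 8.71, 8.63 and 8.52 in control cells. The groups did not overlap, and it fell by 0.53 on the log2 scale (limma adjusted p = 0.0293), while VDR was higher on every knockdown array without passing the test. CYP24A1 missed the threshold in 4 of the 6 fits that left out an array. Among these was the fit without knockdown replicate 1, its lowest array (-0.46, limma adjusted p = 0.102). Of the 13 vitamin D targets, all measured, CYP24A1 and the growth factor HBEGF (-0.37 ± 0.06, limma adjusted p = 0.0195) fell. SPP1, osteopontin, rose, with values of 9.78, 9.73 and 9.71 in knockdown cells and 8.62, 8.78 and 9.22 in control cells (0.87 ± 0.14, limma adjusted p = 0.0188). Control replicate 3 was the highest control for SPP1, and without it the difference was 1.04.

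Glucocorticoid targets had the lowest median of the target lists at -0.14, with 9 of 14 measured genes negative (40.4% over all genes), out of 16 listed. The NF-kappaB inhibitor NFKBIA (-0.40 ± 0.08, limma adjusted p = 0.0461) and the stress gene GADD45A (-0.54 ± 0.11, adjusted p = 0.0451) fell, and the secreted protein gene CRISPLD2 rose (0.43 ± 0.06, adjusted p = 0.0146). Without control replicate 3 the list median was -0.02. In that fit GADD45A and CRISPLD2 passed and NFKBIA did not (limma adjusted p = 0.0683), and NFKBIA passed in 0 of the 6 fits that left out an array. DUSP1, a phosphatase that shuts off MAP kinases, named after its value was seen, passed in that fit, against a limma adjusted p of 0.0786 with all arrays (-0.65 ± 0.16).

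Of the 12 measured estrogen and progesterone targets of 15, which include PGR, 0 passed (2 at an unadjusted p of 0.05; limma; median 0.09), with XBP1 at -0.23 ± 0.10 and CTSD at 0.21 ± 0.07 differing most. Of the 13 measured retinoic acid targets of 14, STRA6, already counted above, was the 1 that rose (median 0.08). Of the 15 measured PPAR targets of 17, the pyruvate dehydrogenase kinase PDK4 rose (0.48 ± 0.06, limma adjusted p = 0.0112) and the phosphatidate phosphatase LPIN1 fell (-0.36 ± 0.07, adjusted p = 0.0389).

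Of the 12 measured LXR targets of 13, SCD, the desaturase that makes oleic acid, fell. It had values of 11.61, 11.78 and 11.92 in knockdown cells and 12.58, 12.64 and 13.13 in control cells, with no overlap (-1.02 ± 0.15, 2.02-fold lower, limma adjusted p = 0.0146). Control replicate 3 was its highest array, and without it the difference was -0.84. The median of the LXR list was 0.00.

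Among 16 measured clock genes of 17, NPAS2, a partner of BMAL1, rose, with values of 12.58, 12.52 and 12.52 in knockdown cells and 12.27, 12.24 and 12.26 in control cells (0.29 ± 0.06, limma adjusted p = 0.0377). It passed in 0 of the 6 fits that left out an array (adjusted p between 0.0523 and 0.139). BMAL1, named after its values were seen because NR1D1 is known to repress it, was lower on every knockdown array at -0.30 ± 0.09 (adjusted p = 0.124). The list median was 0.00, and the time of day of harvest is not given in the sources used here.

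Calls in these lists became fewer when an array was left out, as did calls over all genes. The share of all genes called was 3.05% with every array. It ranged from 0.239% (knockdown replicate 3 left out) to 2.90% (control replicate 3 left out). The differences kept their direction, with HBEGF between -0.395 and -0.349 and SPP1 between 0.74 and 1.04. Whether calls were lost through particular arrays or through fewer arrays was not tested. Of the 16 genes called in the partner, ligand and target lists besides EHMT2, 1 passed without knockdown replicate 1, 1 without knockdown replicate 3, 4 without knockdown replicate 2, 5 without control replicate 2, 9 without control replicate 1 and 13 without control replicate 3. DIO2 was the gene that passed in all 6 of these fits (limma adjusted p between 0.0060 and 0.0353), PDK4 and SCD passed in 4, and NFKBIA and NPAS2 in 0.

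**Figure D4:**
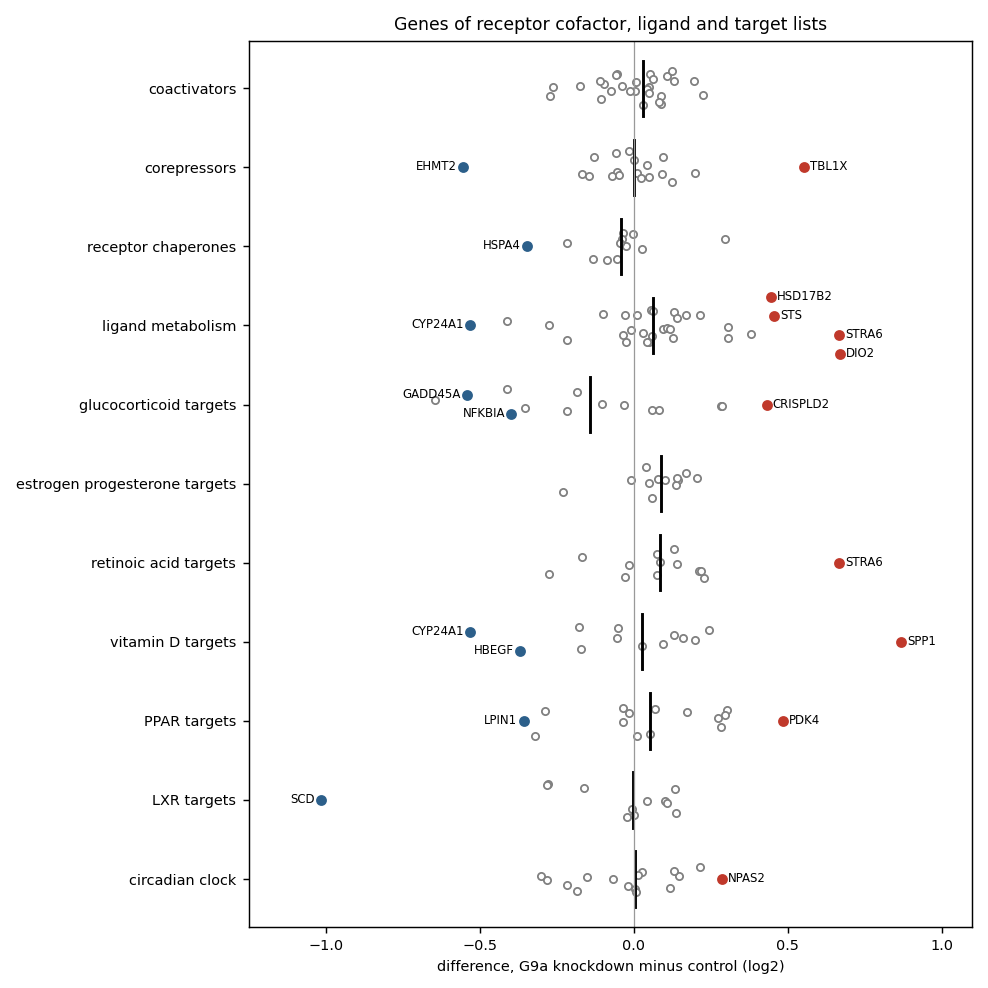
Log2 difference (G9a knockdown minus control) of each measured gene in 11 lists of receptor partners, ligand metabolism and receptor targets, with filled points for genes that passed the test (limma adjusted p of at most 0.05) and a bar at each list's median. Medians lie close to 0 except for glucocorticoid targets at -0.14, and SCD at -1.02 is the lowest filled point.

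How many receptors passed moved widely with the statistical setting, as did the share of all genes. Weighting the arrays by quality called 17 receptors and 18.1% of all genes, an intensity trend in the variance called 9 receptors and 5.88%, and leaving out the bottom tercile of genes called 12 of 25 receptors and 7.92%. With a separate test of every probe set, 0 receptors passed (17 at an unadjusted p of 0.05; limma) and 0.255% of all genes did. With control replicate 3 and knockdown replicate 1 both left out, NR3C2, NR1D1 and PPARG passed, and 1.86% of all genes did.

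**Figure D5:**
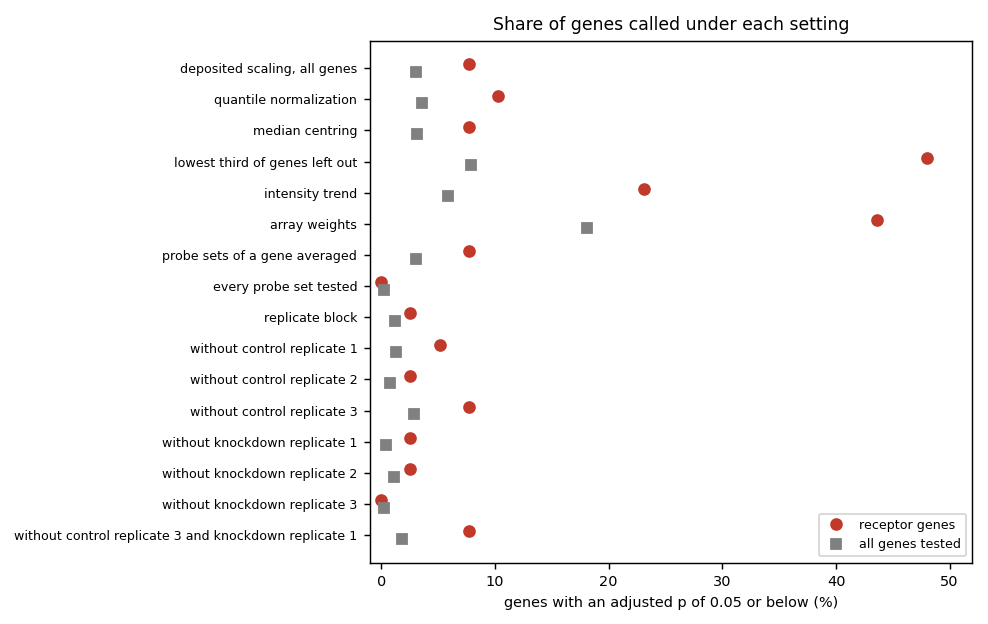
Percent of the measured receptors and percent of all genes that passed the test under each setting, with the setting on the vertical axis. The share of all genes is largest with array weights at 18.1%, and the receptor share is large both there (17 of 39) and with the bottom tercile of genes left out (12 of 25).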

How the data were processed

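Gene expression was measured on 6 arrays, 3 of a G9a knockdown clone and 3 of parental MDA-MB231 cells, grouped by their titles. The authors deposited 1 value table of 33297 probe sets on a log2 scale. The scale was read from the values (2.13 to 14.8), and the sources used here give no normalization, software or detection calls. Probe sets were named from the platform annotation: 19460 named 1 gene, 1754 several and 12083 were not listed, and symbols were updated through 19429 Entrez matches. For 769 genes with several probe sets the one with the highest mean was kept, leaving 18417 genes.

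Groups were compared with limma 3.58.1 (lmFit and eBayes) in R 4.3.3, two-sided, with Benjamini-Hochberg adjustment over all genes and a threshold of 0.05. The scripts were tested on simulated data. Tables were made with Python 3.11.15 and pandas 2.3.3.

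Receptors given with every array's value were the steroid, vitamin D, retinoic acid receptors and RXRA, those past the threshold, and those whose groups did not overlap and differed by 0.25 log2 or more. From the 16 other gene lists the members past the threshold were named, or the 2 that differed most where none passed. The receptors and lists were chosen with earlier results of these data known. Promoters and gene order came from RefSeq (GRCh38.p14), and 41 of 46 receptors had a promoter. The alternatives tried were 15 settings of normalization, filtering, variance model, probe set choice, replicate block and arrays left out.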

Additional observations from a re-analysis of the deposited data

How the results depend on the processing

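The alternatives were quantile normalization, median centring, the bottom tercile of genes left out, an intensity trend, array weights, averaged probe sets, every probe set tested, a replicate block, each array left out in turn, and, chosen after seeing the data, omission of both control replicate 3 and knockdown replicate 1. The main counts were 235 genes higher and 327 lower, and 1 receptor higher and 2 lower. Quantile normalization called 2 receptors higher, with a receptor median of 0.011. Without the bottom tercile 398 genes were higher and 574 lower, with 7 receptors higher and 5 lower and a median of 0.020; this setting tested fewer genes. The intensity trend gave 434 and 649 genes and 5 and 4 receptors. Array weights gave 1718 and 1610 genes, 9 and 8 receptors and a median of -0.0070. Testing every probe set gave 20 and 27, and 0 and 0 receptors (17 at an unadjusted p of 0.05). With the pair of arrays left out, 154 genes were higher and 189 lower, and the receptor median was 0.0053. Leaving out 1 array gave 21 to 222 genes higher and 23 to 313 lower, 0 to 1 receptors higher, 0 to 2 lower, and a median of -0.010 to 0.064. Except where fewer genes or arrays were tested, the cause was not tested.

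With the replicate number as a block, 101 genes were higher and 116 lower, and of the receptors 0 were higher and 1, NR3C2, was lower (adjusted p = 0.0186). The numbers share no stated culture. Deviations from the group means correlated between same-numbered arrays at -0.25, 0.12 and 0.09. Such weak values from so few arrays cannot tell whether a culture, day or batch was shared.

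Direction was followed over all settings for EHMT2 and the 20 receptors given with every array's value. It reversed for ESR2 under quantile normalization (-0.0082) and array weights (-0.0083), ESR1 under array weights (-0.0070), and RARB without control replicate 1 (0.038) or knockdown replicate 3 (0.030), over a range of -0.076 to 0.038 with 1 array left out. The others of these kept their direction in every setting run. Of the remaining receptors, not followed over all settings, NR0B2 was -0.023 without knockdown replicate 1 and HNF4G 0.0053 with the pair of arrays left out. NR3C2 kept its call in 13 of 15 settings, with adjusted p of 0.0506 when every probe set was tested. NR1D1 kept its call in 9 and RXRA in 6. Dim probe sets, without detection calls, limit what can be said of ESR1, ESR2 and PGR.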
